A study of Mus musculus with 4 samples.

Results

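PPARG, C/EBPA, C/EBPB and C/EBPD are transcription factors of fat cell formation, and their signals were compared between PTIP -/- and PTIP +/+ mouse embryonic fibroblasts. A probe set was a member if the platform annotation gave it Pparg, Cebpa, Cebpb or Cebpd as its single gene symbol. This rule gave 4 of the 18193 genes with a probe set of their own, on 6 of the 45037 probe sets that are not array controls, with 1 each for Pparg and Cebpa and 2 each for Cebpb and Cebpd.

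The PTIP -/- cells were immortalized fibroblasts carrying PTIP flox/flox alleles, infected with a retrovirus that expresses Cre recombinase. The PTIP +/+ cells were the same floxed cells infected with the empty vector, so that both genotypes share the immortalization, the floxed alleles before infection, the viral infection, the puromycin selection at 2.5 µg/ml and the medium with 10% serum. Cre was given to the PTIP -/- cells alone, so Cre expression and the loss of PTIP cannot be told apart here. Each genotype gave 2 RNAs, numbered 1 and 2, and each RNA was hybridised to 1 Affymetrix array, 4 arrays in all. The labels name no fat cell inducer, and they do not explain the numbers, so the p-values measure only the spread between these RNAs, which may be technical. Fibroblasts of an embryo are a mixed population, and a lower signal cannot tell fewer expressing cells from less RNA per cell.

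Fat cell formation runs through a cascade of transcription factors. C/EBPB and C/EBPD are basic leucine zipper proteins that appear early after the inducing hormones, C/EBPB partly through CREB acting on its promoter, and C/EBPD partly through the glucocorticoid receptor and STAT3. Together they switch on Pparg and Cebpa. PPARG is a nuclear receptor that binds DNA as a partner of RXR and directs the fat cell programme, and C/EBPA is a later leucine zipper factor that keeps Pparg on and is kept on by it. Fibroblasts outside the fat lineage also use C/EBPB and C/EBPD, in inflammatory and acute phase responses. PTIP, the product of Paxip1, is a subunit of the MLL3/MLL4 complexes, which methylate lysine 4 of histone H3.

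The promoters of these factors were searched for letters of the sites that the cascade is known to use, and the stretches with the CREB and C/EBP letters and the most upstream Pparg stretch are printed to show how unlike they are. RefSeq (GRCm38.p6) gave promoters for 3 of the 4 genes, Pparg with 3 starts and Cebpa and Cebpb with 1 each. The 250 bases upstream of each start were searched on both strands. In Cebpb the capitals mark TGACG, the core of the CREB site, or its reverse complement. In the most downstream Pparg start they mark TTGCNNAA, letters of the C/EBP site, and CCAAT, and in the most upstream Pparg start they mark AGGTCA, the core letters bound by PPAR and RXR receptors. The window of Cebpb is chr2:167688665-167688914, that of the most downstream Pparg start is chr6:115421816-115422065 and that of the upstream one is chr6:115360894-115361143, all on the plus strand.
Cebpb: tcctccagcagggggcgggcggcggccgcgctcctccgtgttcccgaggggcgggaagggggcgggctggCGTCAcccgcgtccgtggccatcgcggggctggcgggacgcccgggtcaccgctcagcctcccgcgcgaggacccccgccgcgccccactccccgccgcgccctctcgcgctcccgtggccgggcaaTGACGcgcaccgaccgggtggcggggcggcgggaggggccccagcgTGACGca
Pparg, downstream start: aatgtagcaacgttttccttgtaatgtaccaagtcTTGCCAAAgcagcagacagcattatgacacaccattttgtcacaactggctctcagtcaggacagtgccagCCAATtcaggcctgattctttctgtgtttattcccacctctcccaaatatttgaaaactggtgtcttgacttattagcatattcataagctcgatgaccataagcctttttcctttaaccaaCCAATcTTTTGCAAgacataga
Pparg, upstream start: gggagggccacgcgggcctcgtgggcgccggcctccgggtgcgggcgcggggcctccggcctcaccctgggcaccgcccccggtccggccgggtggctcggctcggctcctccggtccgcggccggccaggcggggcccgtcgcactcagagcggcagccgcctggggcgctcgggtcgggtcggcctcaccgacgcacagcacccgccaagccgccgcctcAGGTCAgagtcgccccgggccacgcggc

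The Cebpb stretch held 3 copies of TGACG, the nearest beginning 7 bases upstream of the start, whereas 17.8% of the 32851 promoter stretches in the table held any copy. The most downstream Pparg start held 2 copies of TTGCNNAA, the nearer of them, TTTTGCAA, read on the minus strand and beginning 16 bases upstream of the start. Of all stretches, 9.6% held any copy of it. The same start held 2 copies of CCAAT, found in 33.8% of stretches, and the middle Pparg start held 1. AGGTCA, present in 14.0% of stretches, stood once in the most upstream and once in the middle Pparg start. TATAA was found in Cebpa and, in 2 copies that overlap on opposite strands, in the middle Pparg start, and 22.8% of stretches held it. CCAAT, TTGCNNAA and TGACG did not overlap each other in these stretches. Base composition differed widely, with 82.4% G and C at the most upstream, 63.6% at the middle and 40.8% at the most downstream Pparg start, 66.4% at Cebpa and 81.6% at Cebpb, beside a median of 52.4% over all stretches. The Pparg probe set has a name ending in "_a_at", which Affymetrix gives to probe sets shared by several transcripts of 1 gene, so its signal was not assigned to a start. A match of letters is a description of the sequence, and binding was not measured.

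**Figure D1:**
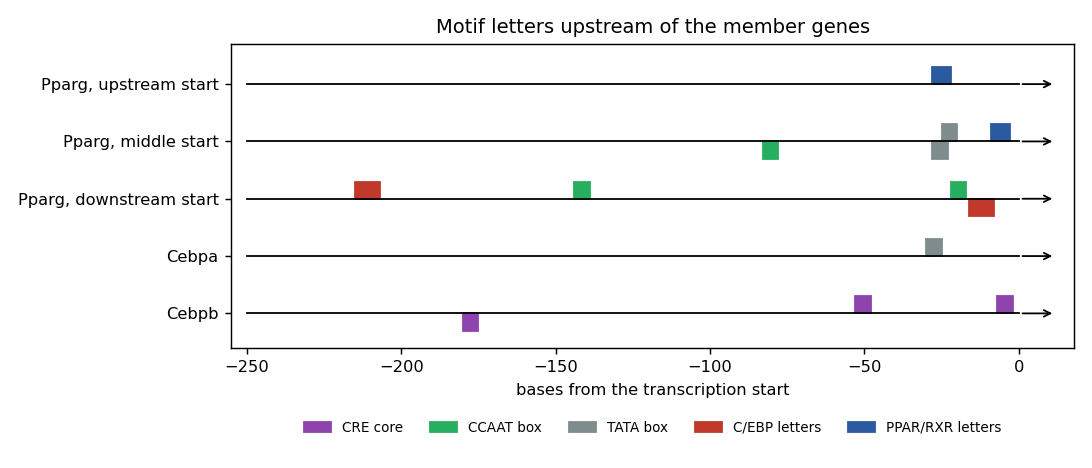
Positions of the searched letters in the 250 bases upstream of the RefSeq starts of Pparg, Cebpa and Cebpb, in bases from the start (arrow), with blocks above the line on the plus strand and below it on the minus strand. The 3 blocks of the CREB core lie upstream of Cebpb and both blocks of the C/EBP letters upstream of the most downstream Pparg start.

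Each array had a mean of 500.0 after the top and bottom 2% had been left out. Scaling to a common mean gives this, so it does not show that the arrays are alike. The median signal was 97.8 and 82.5 in PTIP -/- replicates 1 and 2, against 83.2 and 75.8 in PTIP +/+ replicates 1 and 2. A signal of 47.68, the 40th percentile of probe-set means, was taken as the lowest that can be read as a level, and 27022 probe sets whose mean (on the log scale) reached it were tested. Between 34.1% and 40.6% of probe sets lay below it on each array. Paxip1, the targeted gene, read 43.5 and 74.6 in PTIP -/- cells against 1029.5 and 1040.1 in PTIP +/+ cells, as the labels have it. With limma, 0 probe sets passed an adjusted p under 0.05 in either direction, and 389 higher (1.44%) and 235 lower (0.87%) had an unadjusted p under 0.05. The median log2 change of all tested probe sets was 0.08, and it was -0.10 with arrays centred on their medians. Of the fibroblast markers 8 of 9 passed the level filter, with a summed signal of 148994.5 and 132339.5 in PTIP -/- and 153657.7 and 159380.1 in PTIP +/+. Col1a1, Col1a2, Col3a1, Vim and Fn1 made up most of these sums, which therefore say little of the dimmer markers. Of the 8 tested, 3 were higher and 5 lower in PTIP -/-. Pdgfra read 3563.4 and 174.2 in PTIP -/- against 5010.1 and 583.2 in PTIP +/+, and like Thy1 it was far lower in number 2 of both genotypes. Macrophage markers, of interest because macrophages express both Cebpb and Pparg, summed to 881.4 and 594.7 in PTIP -/- and 683.9 and 463.9 in PTIP +/+ over 6 genes, with Ptprc and Itgam below the filter. Of these markers all 4 tested were higher in PTIP -/-, and 1 was higher and 3 lower with centred arrays. Lyz2 was at least 1.5-fold higher within both numbers (2.78% of all genes tested). It read 333.3 and 99.9 in PTIP -/- against 153.4 and 36.0 in PTIP +/+. The part of macrophages in the results was not tested.

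Pparg showed the widest difference of the 4 genes. Its probe set read 3.9 and 36.0 in PTIP -/- replicates 1 and 2, against 143.1 and 750.0 in PTIP +/+ replicates 1 and 2. Both PTIP -/- arrays lay below the lowest level that can be read, and both PTIP +/+ arrays lay above it, so that the genotypes did not overlap. The mean log2 signal was 3.57 ± 2.27 in PTIP -/- and 8.36 ± 1.69 in PTIP +/+ (SD, n = 2 each). With the PTIP -/- signals raised to the readable level, Pparg was at least 6.87-fold lower in PTIP -/-. Within number 1 it was at least 3.00-fold lower and within number 2 at least 15.7-fold lower. The measured signals gave a log2 change of -4.79 ± 1.38 (SE), with adjusted p = 0.9998 in limma, and -2.78 with signals raised to the readable level. The exact permutation test gave a two-sided p of 0.333, the smallest that 2 arrays against 2 can give.

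Pparg passed the level filter only through its PTIP +/+ signals, and no rank of its change among all probe sets is given, since signals below the readable level have no reliable order. The signal also followed the replicate number in PTIP +/+, being 5.24 times as high in number 2 as in number 1. In PTIP -/- both signals are below the readable level, and the numbers cannot be compared.

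Cebpa was dim on all 4 arrays. It read 46.5 and 15.4 in PTIP -/- replicates 1 and 2, against 104.3 and 23.9 in PTIP +/+ replicates 1 and 2. One array, PTIP +/+ replicate 1, lay above the readable level, and the genotypes overlapped. The mean log2 signal was 4.74 ± 1.13 in PTIP -/- and 5.64 ± 1.5 in PTIP +/+ (SD, n = 2 each), a difference of -0.90. Within number 1 Cebpa was at least 2.19-fold lower in PTIP -/-, and within number 2 both arrays were below the readable level, so no fold is given. It did not pass the level filter and was not tested, and over all 4 arrays the bound came to 1.05-fold lower. Without PTIP +/+ replicate 1 the difference was 0.16, on the other side of 0.

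Cebpb, whose product acts before PPARG in the cascade, was about 2-fold lower in PTIP -/- on both of its probe sets. The brighter probe set read 912.4 and 2060.0 in PTIP -/- replicates 1 and 2, against 1964.4 and 4512.2 in PTIP +/+ replicates 1 and 2. All 4 signals were far above the readable level, and the genotypes overlapped, because PTIP -/- replicate 2 lay just above PTIP +/+ replicate 1. The mean log2 signal was 10.42 ± 0.83 in PTIP -/- and 11.54 ± 0.85 in PTIP +/+ (SD, n = 2 each). Within number 1 the signal was 2.15-fold lower in PTIP -/- and within number 2 it was 2.19-fold lower. The log2 change over all arrays was -1.12 ± 0.62 (SE), with adjusted p = 0.9998 in limma.

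The second Cebpb probe set read 270.0 and 502.5 in PTIP -/- replicates 1 and 2, against 547.9 and 1402.5 in PTIP +/+ replicates 1 and 2. Here the genotypes did not overlap, although PTIP -/- replicate 2 came close to PTIP +/+ replicate 1. It was 2.03-fold lower in number 1, 2.79-fold lower in number 2 and 2.38-fold lower overall (log2 -1.25 ± 0.61, SE, adjusted p = 0.9998 in limma). Both probe sets therefore put Cebpb lower in PTIP -/- within each number. Neither passed the test, and the numbers lay about as far apart as the genotypes did.

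Cebpd, the other early factor, was lower on its brighter probe set and not on the other. The brighter one read 434.5 and 1215.1 in PTIP -/- replicates 1 and 2, against 991.5 and 2288.4 in PTIP +/+ replicates 1 and 2. As for Cebpb, PTIP -/- replicate 2 lay above PTIP +/+ replicate 1, so the genotypes overlapped. The signal was 2.28-fold lower in number 1, 1.88-fold lower in number 2 and 2.07-fold lower overall. The mean log2 signal was 9.51 ± 1.05 in PTIP -/- and 10.56 ± 0.85 in PTIP +/+ (SD, n = 2 each), a log2 change of -1.05 ± 0.70 (SE) with adjusted p = 0.9998 in limma.

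The dimmer Cebpd probe set read 205.8 and 151.5 in PTIP -/- replicates 1 and 2, against 155.3 and 162.8 in PTIP +/+ replicates 1 and 2. The PTIP -/- signals lay on either side of the PTIP +/+ signals. Its log2 change was 0.15 ± 0.30 (SE, adjusted p = 0.9998 in limma), and with arrays centred on their medians it was -0.03. Nor was it more than 2-fold higher in number 2, as the brighter probe set was, with number 2 at 0.736 times number 1 in PTIP -/- and 1.05 times in PTIP +/+. The platform annotation pairs this probe set with no accession, so which transcript it reads is unknown here. The 2 probe sets of Cebpd thus disagree about the gene, and the lower level of Cebpd rests on the brighter one.

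**Figure D2:**
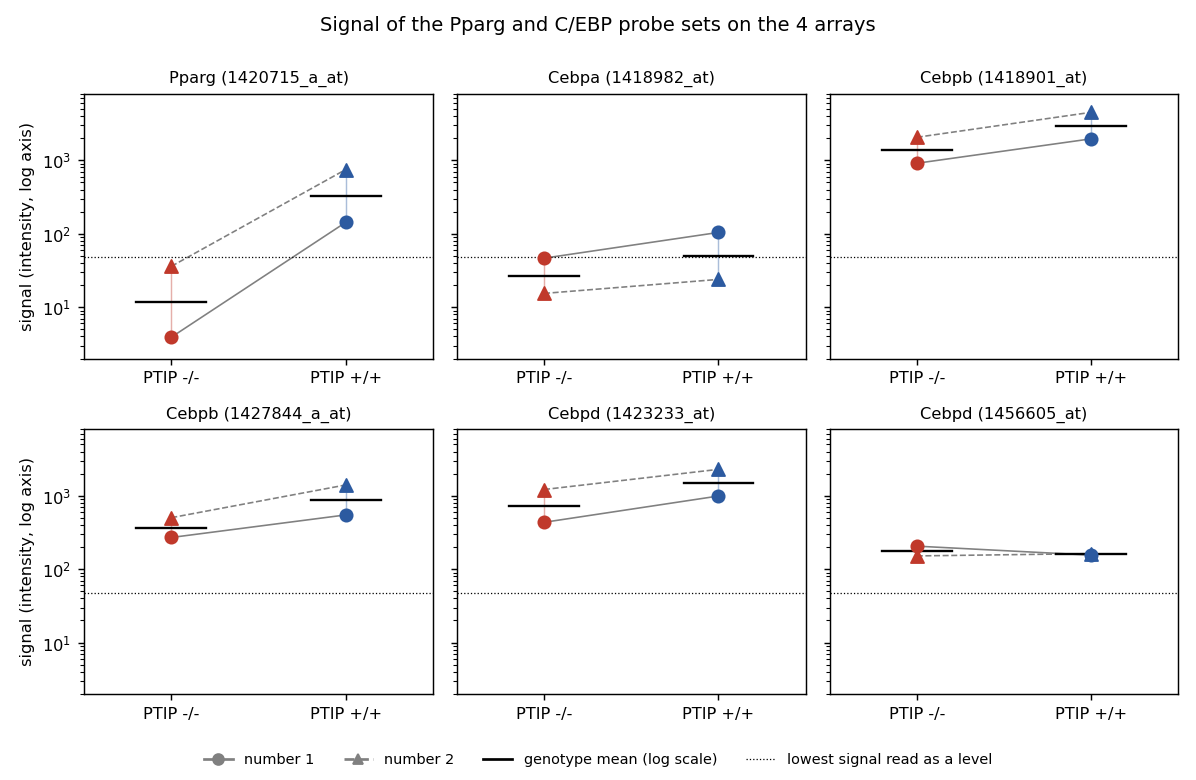
Signal (intensity, log axis) of the 6 probe sets in PTIP -/- (left) and PTIP +/+ (right) cells, with circles and solid lines for number 1, triangles and dashed lines for number 2, black bars for the mean of the 2 log2 signals and a dotted line at 47.68. The lines rise from left to right in both numbers for 5 probe sets, and Pparg in PTIP -/- lies below the dotted line on both arrays.

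Taking the 6 probe sets together, 5 had a log2 change below 0, as had 40.9% of all probe sets tested. Within both numbers, 4 of the 6 were lower in PTIP -/- by at least 1.5-fold with signals raised to the readable level, beside 1.72% of all probe sets tested, and 3 of the 6 by at least 2-fold, beside 0.637%. The 4 were Pparg, both Cebpb probe sets and the brighter Cebpd probe set, and the 3 leave out Cebpd. On the higher side, 0 of the 6 reached 1.5-fold in both numbers, beside 3.16% of all. Both PTIP -/- arrays lay below both PTIP +/+ arrays for 2 of the 6, Pparg and the dimmer Cebpb probe set, beside 10.5% of all. These counts describe genes proposed with results of these data in view, and they are not a test. The 6 include Cebpa, which was not tested, whereas the shares are of tested probe sets alone. The Cebpb probe sets read the same gene, and Pparg passed the level filter only through its PTIP +/+ signals. In the test itself 0 of the 5 tested passed after adjustment, and 1, Pparg, had an unadjusted p under 0.05 on the lower side, beside 0.87% of all probe sets tested. That p, 0.0219 in limma, comes from PTIP -/- signals below the readable level, and it was 0.0222 with signals raised to it. Raising gives both PTIP -/- arrays the same value and so removes their spread. The second p is therefore no check on the first.

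On 3 of the 4 probe sets of the early factors the genotype differences had the same sign in both numbers, and on the dimmer Cebpd probe set they had opposite signs, 0.41 in number 1 and -0.10 in number 2. The log2 change of the brighter Cebpb probe set was -1.11 in number 1 and -1.13 in number 2, that of the brighter Cebpd probe set -1.19 and -0.91, and that of the second Cebpb probe set -1.02 and -1.48. Among all probe sets tested, the brighter Cebpb probe set stood at percentile 1.95 in number 1 and 3.64 in number 2, the brighter Cebpd probe set at 1.70 and 5.70, and the second Cebpb probe set at 2.25 and 1.97. The dimmer Cebpd probe set stood at 77.6 and 36.9. Each of these comparisons sets 1 array against 1 array and carries no test.

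**Figure D3:**
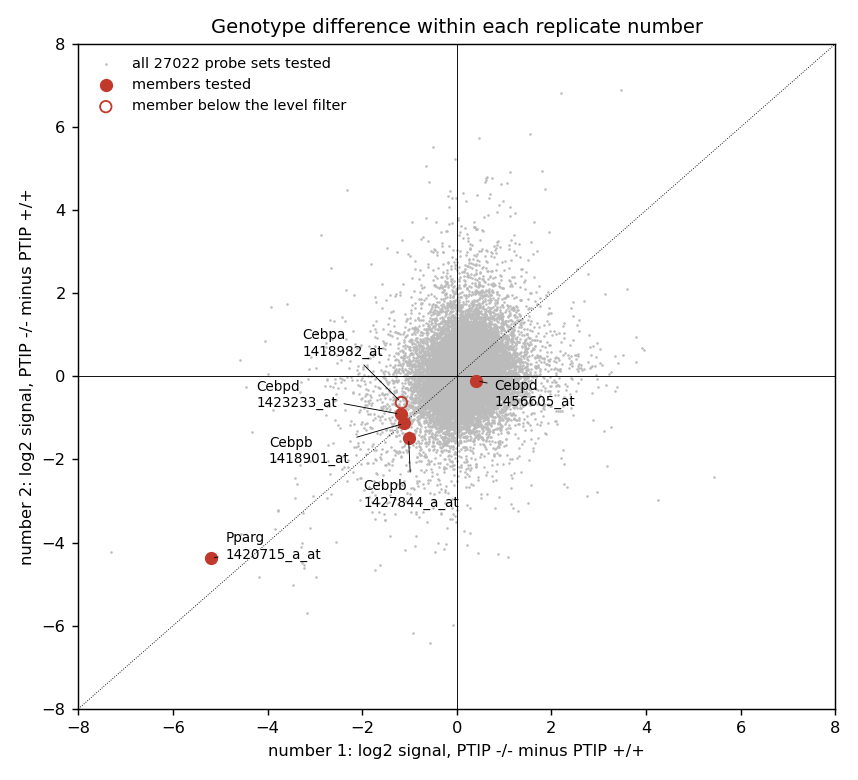
Log2 signal of PTIP -/- minus PTIP +/+ within number 1 (horizontal) and within number 2 (vertical) for the 27022 probe sets tested (grey) and the 6 members (red, open for Cebpa, which lay below the level filter), with the dotted line at equal differences. Pparg lies far to the lower left at measured differences of -5.20 and -4.38, Cebpb and the brighter Cebpd probe set near -1 on both axes, and the dimmer Cebpd probe set near 0.

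On the brighter probe sets of Cebpb and Cebpd the numbers lay at least as far apart on the log2 scale as the genotypes. The brighter Cebpb probe set was 2.26 times as high in number 2 as in number 1 in PTIP -/-, and 2.30 times in PTIP +/+. The brighter Cebpd probe set was 2.80 times as high in PTIP -/- and 2.31 times as high in PTIP +/+. Cebpa went the other way in PTIP +/+, with 104.3 in number 1 and a signal below the readable level in number 2. Cebpb and, on its brighter probe set, Cebpd were thus higher in number 2 of both genotypes. For Pparg and Cebpa the order can be read in PTIP +/+ alone, with Pparg higher in number 2 and Cebpa in number 1. The labels do not name what separates the numbers.

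The genes with the most similar pattern were sought by the root mean square difference of log2 profiles over the 4 arrays, each profile centred on its own mean, among 11860 named genes on their brightest probe sets (11861 for Cebpa). For Cebpb the second nearest gene was Cebpd, at a difference of 0.11, after Vkorc1 at 0.07 and before Afap1l2 at 0.13. For Cebpd the nearest were Spata2l (0.04), Vkorc1 (0.08) and Nrp1 (0.10), where Spata2l lay below the readable level on 1 array of each genotype, so that its first place is not reliable. Vkorc1, which encodes the vitamin K epoxide reductase subunit, read 1193.7 and 2930.9 in PTIP -/- against 2686.0 and 5688.7 in PTIP +/+, and so shared with both factors the order of the arrays by number and by genotype. Nrp1, a co-receptor of semaphorins and VEGF, read 772.3 and 1990.2 in PTIP -/- against 1441.3 and 3788.7 in PTIP +/+.

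For Pparg the distances rest in part on PTIP -/- signals below the readable level, so their sizes and order are not reliable. The genes listed nearest were Blvrb, biliverdin reductase B, at a difference of 1.04, Epha3, an ephrin receptor, at 1.09 and Rcan2, a calcineurin regulator, at 1.10. Epha3 read 47.9 and 65.1 in PTIP -/- against 451.8 and 1578.4 in PTIP +/+. Rcan2 read 54.2 and 1253.3 in PTIP -/- against 579.1 and 9457.4 in PTIP +/+, with number 2 far above number 1 in both genotypes. Cebpa, below the readable level on 3 arrays and so with distances no more reliable, was nearest to Olfm1 (0.07), Snap91 (0.12) and Mbp (0.14), and Olfm1 read 197.1 and 70.0 in PTIP -/- against 510.8 and 110.6 in PTIP +/+. With 4 arrays, many of the 11860 genes can share a profile, and likeness says nothing of shared control.

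The relatives of PPARG that were tested lay above 0. Of the 6 genes for PPAR receptors and their RXR partners 4 were tested, and Pparg alone was lower. Ppard, the receptor found in most tissues, read 524.5 and 388.9 in PTIP -/- against 481.3 and 296.0 in PTIP +/+ (log2 0.26 ± 0.38, SE). Rxra, the RXR partner with which PPARG most often binds DNA, read 585.7 and 572.6 in PTIP -/- against 400.1 and 628.2 in PTIP +/+ (log2 0.21 ± 0.34, SE), and Rxrb gave 0.31 ± 0.38 (SE). These 3 differed from 0 by less than their SE. Ppara and Rxrg lay below the level filter. None of the 4 passed, and whether Pparg differs from them was not tested.

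Of the C/EBP family, 4 of 6 genes were tested, with 3 lower and 1 higher and a median log2 change of -0.70, beside 0.05 over the 12509 genes tested. Cebpb and Cebpd are among the 4, so this median in part restates their values and says nothing separate about the family. With centred arrays 4 of 4 were lower. Cebpg, a relative that lacks an activation domain and pairs with the others, read 743.2 and 847.0 in PTIP -/- against 805.4 and 1253.0 in PTIP +/+ (log2 -0.34 ± 0.34, SE). Ddit3, which encodes CHOP, a stress-induced partner that keeps C/EBP proteins from their usual sites, read 1512.5 and 1225.6 in PTIP -/- against 1371.6 and 1160.0 in PTIP +/+ (log2 0.11 ± 0.29, SE). Its change was on the other side of 0 on a second probe set, at -0.26, and with centred arrays, at -0.07. Cebpe had no probe set of its own symbol, and Cebpa is described above.

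The list of regulators upstream of Cebpb and Cebpd had 9 tested genes, 7 lower and 2 higher, with a median log2 change of -0.32. It also holds Klf5, which acts after C/EBPB and C/EBPD. Without Klf5, 6 of 8 were lower and 2 higher around -0.24, and 1 of the 8, Klf4, was at least 1.5-fold lower within both numbers, beside 1.95% of all genes tested. Klf4, a zinc finger factor that acts on Cebpb early in fat cell formation, read 1589.5 and 655.3 in PTIP -/- against 5194.6 and 2625.9 in PTIP +/+ (log2 -1.86 ± 0.60, SE). Klf5, which C/EBPB and C/EBPD switch on and which acts on Pparg, was past 1.5-fold as well on its brightest probe set. That probe set read 399.0 and 730.2 in PTIP -/- against 717.3 and 4162.3 in PTIP +/+ (log2 -1.68 ± 0.94, SE). The other tested probe set of Klf5 was under 1.5-fold within number 1 (log2 -0.33). Creb1, which encodes CREB, gave -0.17 ± 0.31 (SE), Stat3 0.21 ± 0.65 (SE) and Nr3c1, the glucocorticoid receptor, -0.49 ± 0.45 (SE). Egr2, another early activator of Cebpb, was dim at 112.1 and 75.9 in PTIP -/- against 133.3 and 99.2 in PTIP +/+. None passed after adjustment.

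Among other factors that promote fat cell formation, 4 of 9 lay above 0 and 5 below it, with the median at -0.01. On the brightest probe sets Klf5 was again the only one past 1.5-fold in both numbers, on the lower side (1.95% of all genes tested). The other tested probe set of Klf5 gave log2 -0.33 within number 1, under 1.5-fold, and -1.22 within number 2. Lpin1, a phosphatidate phosphatase and coactivator, read 267.0 and 399.0 in PTIP -/- against 74.0 and 295.5 in PTIP +/+ (log2 1.14 ± 0.75, SE). Its other probe set was past 1.5-fold higher in both numbers, at 193.0 and 440.4 in PTIP -/- against 40.9 and 191.1 in PTIP +/+. Srebf1, the lipogenic factor that can raise PPARG activity, gave 0.14 ± 0.29 (SE), and -0.04 with centred arrays, where 2 of the 9 were higher and 7 lower. Zfp423 and Ebf2, factors of fat cell precursors, and Klf15 did not pass the level filter.

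Factors that restrain fat cell formation lay on both sides of 0, with 5 of 14 tested higher and 9 lower around a median of -0.13, and 3 higher and 11 lower with centred arrays. Dlk1, the preadipocyte protein Pref-1, read 96.0 and 107.5 in PTIP -/- against 157.2 and 644.9 in PTIP +/+ (log2 -1.65 ± 0.74, SE). Klf2, which represses Pparg, read 1226.8 and 1308.4 in PTIP -/- against 2284.7 and 3416.9 in PTIP +/+ (log2 -1.14 ± 0.33, SE). Sox9, which represses Cebpb and Cebpd in preadipocytes, was higher, at 86.2 and 98.4 in PTIP -/- against 49.3 and 28.8 in PTIP +/+ (log2 1.29 ± 0.37, SE). One PTIP +/+ array lay below the readable level, and with it raised to that level the change was 0.93, with number 2 at least 2.06-fold higher. These 3 were the members past 1.5-fold in both numbers, 2 lower (1.95% of all genes tested) and 1 higher (2.78%). None passed after adjustment.

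Fat cell genes that PPARG and C/EBPA bind were mostly near or below the readable level, and those above it showed no common direction. Of 26 genes 23 had a probe set and 14 were tested, 9 higher and 5 lower (median log2 change 0.06), and 4 higher and 10 lower around -0.12 with centred arrays. In neither direction did any of the 14 differ by 1.5-fold within both numbers, beside 1.95% lower and 2.78% higher of all genes tested. Adipoq, Lep and Cidec, defining genes of the mature fat cell, stayed below 47.68 on all 4 arrays, Adipoq at 10.7 and 26.9 in PTIP -/- and 4.4 and 4.5 in PTIP +/+. Plin2, a lipid droplet coat protein made in many cell types, read 3789.1 and 5810.8 in PTIP -/- against 2871.8 and 2243.9 in PTIP +/+ (log2 0.89 ± 0.35, SE). Lpl, lipoprotein lipase, read 149.3 and 155.1 in PTIP -/- against 291.0 and 41.0 in PTIP +/+, lower in number 1 and higher in number 2.

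Fabp4, a lipid chaperone and a direct target of PPARG, followed the replicate number. Fabp4 read 16.1 and 4029.7 in PTIP -/- against 60.2 and 3351.8 in PTIP +/+. In PTIP -/- replicate 2 its signal was the highest of the 4 arrays, and Pparg read 36.0 on that array. In PTIP +/+ replicate 1 it was close to the readable level, where Pparg read 143.1. The fat cell markers summed to 39.1 and 4061.6 in PTIP -/- and 79.5 and 3376.7 in PTIP +/+, nearly all of it Fabp4, which was 1 of the 4 of these markers with a probe set to pass the level filter. The other tested probe sets of Fabp4 gave log2 changes of 0.55 and -0.07, the -0.07 resting on number 1 signals of 2.7 in PTIP -/- and 5.3 in PTIP +/+. Another that did not pass the level filter gave -0.45.

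Acute phase and inflammatory genes that C/EBPB and C/EBPD drive gave 4 higher and 2 lower of 6 tested, with a median log2 change of 0.17 (3 and 3 around -0.01 with centred arrays). Ccl2, a chemokine, was the only one past 1.5-fold in both numbers (2.78% of all genes tested were higher by this) and was higher, at 3744.3 and 1736.5 in PTIP -/- against 2254.2 and 218.8 in PTIP +/+ (log2 1.86 ± 1.23, SE). Ptgs2, the inducible cyclooxygenase and a target of C/EBPB, read 3523.0 and 4117.8 in PTIP -/- against 5486.2 and 4240.3 in PTIP +/+ (log2 -0.34 ± 0.30, SE). Socs3 gave -0.62 ± 0.43 (SE). Ptgs2 and Socs3 were the 2 lower genes on the brightest probe sets. Cxcl1, counted as higher at a log2 change of 0.03, gave -0.48 and -0.38 on its other tested probe sets. Cxcl5, another chemokine, was farthest from 0 by measured signals (log2 2.11 ± 1.80, SE). It read 30.9 and 655.9 in PTIP -/- against 12.2 and 89.1 in PTIP +/+, with both number 1 signals below the readable level. Lcn2, Hp, Il6 and Orm1 did not pass the level filter. None passed after adjustment.

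Coactivators and corepressors of these factors were close to the median of all genes, with 8 of 11 tested higher and 3 lower around 0.13. On their brightest probe sets 0 were past 1.5-fold within both numbers, beside 1.95% lower and 2.78% higher of all genes tested. Ep300 and Crebbp, acetyltransferases that C/EBP factors and PPARG recruit, gave 0.13 ± 0.38 and 0.17 ± 0.27 (SE), and Med1, the Mediator subunit that binds PPARG, -0.14 ± 0.30 (SE). With centred arrays Ep300 and Crebbp turned to -0.05 and -0.01, and the list to 3 higher and 8 lower. By measured signals the farthest from 0 was Ppargc1b, at 424.7 and 82.6 in PTIP -/- against 355.4 and 12.5 in PTIP +/+ (log2 1.49 ± 1.84, SE). With the 12.5 raised to the readable level its change was 0.52, less than that of Tle3, a corepressor and PPARG coactivator, at 0.63 ± 0.58 (SE). One of the other tested probe sets of Tle3 was past 1.5-fold higher in both numbers (log2 0.92 and 0.76). Another was not (0.86 and -0.20). Of the PTIP-containing complex, 10 of 10 genes were tested, 5 higher and 5 lower around -0.01 (2 higher and 8 lower with centred arrays). Kmt2d, counted as higher at 0.39, gave -1.21 on its other probe set, which was dim. That probe set read 35.8 and 51.1 in PTIP -/- against 127.4 and 76.4 in PTIP +/+. Past 1.5-fold in both numbers were Paxip1 on the lower side (1.95% of all genes tested) and Kdm6a on the higher (2.78%). Kdm6a, a histone demethylase, was just past it at 1.51-fold (log2 0.59 ± 0.43, SE), and under it with quantile normalization (log2 0.51), with centred arrays (0.42) and on its other tested probe set (0.31, and -0.06 within number 2).

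**Figure D4:**
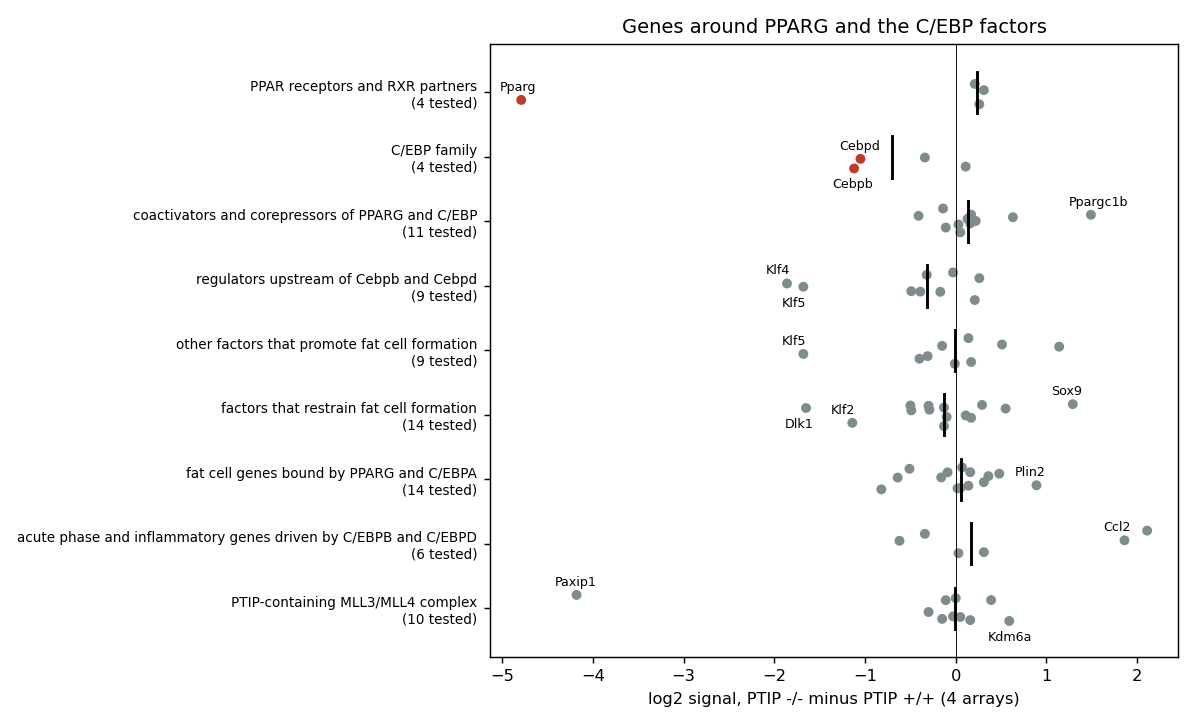
Log2 signal of PTIP -/- minus PTIP +/+ over the 4 arrays for the tested genes of each list (points, red for Pparg, Cebpb and Cebpd) with the list's median (bar) and the names of genes past 1.5-fold in both numbers or, failing any, the gene farthest from 0 by measured signal. Pparg is drawn at its measured -4.79, the fat cell genes centre on 0.06 and the regulators upstream of Cebpb and Cebpd, drawn with Klf5, on -0.32.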

How the data were processed

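Total RNA from 2 PTIP -/- and 2 PTIP +/+ fibroblast samples was hybridised to Affymetrix arrays. The authors deposited 1 linear intensity per probe set and array. The submitters' processing notes name RMA, without a version, yet the values are linear, differ in their quantiles and share a trimmed mean, as scaling to a common mean gives. No source used here gives the background correction or the probe summary.

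Intensities were taken to log2 after 1 value of 0 had been set to 0.1. Array controls (64 probe sets) were dropped. Among the others, 34945 had 1 symbol, 932 several and 9160 none. Symbols were updated by gene number for 34741 through RefSeq (GRCm38.p6). PTIP -/- was compared with PTIP +/+ over 27022 probe sets in limma 3.58.1 under R 4.3.3 (lmFit, eBayes, no covariate, 2 residual degrees of freedom, Benjamini-Hochberg adjustment). An SE is that of the moderated fit. Genes in lists were represented by their brightest probe set. A signal under 47.68 was not read as a level. Where all arrays of the dimmer group lay below it, their signals were set to that value, which makes the fold a lower bound, written "at least". The model was tested on simulated data.

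The members and the lists were chosen with earlier results of these data known. Genes were named by rule: all members, up to 4 list genes past 1.5-fold in the same direction within both numbers or otherwise the gene farthest from 0, Paxip1, and the 3 genes with the nearest profile. Other genes were chosen after their values were seen.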

Additional observations from a re-analysis of the deposited data

How the results depend on the processing

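No probe set passed an adjusted p under 0.05 in limma under any of the 14 alternatives, so the count of 0 held throughout; at an unadjusted p under 0.05 there were 624 probe sets in the fit reported. Pparg, Cebpb and the brighter Cebpd probe set stayed below 0 under every alternative that gave a value. Leaving out 1 array, which also leaves the numbers unequal between the genotypes, put Pparg between -6.39 and -3.19, Cebpb between -1.72 and -0.52 (second probe set -1.93 and -0.57), Cebpd between -1.79 and -0.31 and Cebpa between -1.96 and 0.16, the last, without PTIP +/+ replicate 1, on the other side of 0. Under the other alternatives Pparg ran from -5.00 to -2.78, the latter with signals raised to 47.68, Cebpb from -1.30 to -1.11 and Cebpd from -1.23 to -0.45, the latter over the mean of its 2 probe sets. The dimmer Cebpd probe set crossed 0 with centred arrays (-0.03) and without PTIP -/- replicate 1 (-0.07), and leaving out single arrays took it up to 0.37. A filter at the 60th percentile left out Pparg and Cebpa, and Cebpa had no value in 4 other fits on filtered probe sets.

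The genotypes share replicate numbers that the labels do not explain. Same-numbered arrays deviated together from their genotype means (r = 0.643 across probe sets, which are not independent replicates). With 2 pairs this does not show pairing. The replicate block left the changes as they were, -4.79 ± 0.30 for Pparg, -1.12 ± 0.22 and -1.25 ± 0.25 for Cebpb, -1.05 ± 0.23 and 0.15 ± 0.25 for Cebpd (SE). Unadjusted p from limma fell under 0.05 for 4 members, as for 7.47% of all probe sets, and adjusted p was 0.648 for these 4 and 0.876 for the dimmer Cebpd probe set, the lowest over all alternatives for each. It called 0 probe sets. The number of arrays and signals near background limit the precision for Pparg and Cebpa.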

Other observations

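Ppargc1a, which encodes the PPARG coactivator PGC-1 alpha, lay below the level filter by its mean, yet both PTIP -/- arrays read above 47.68, at 103.1 and 77.5, and both PTIP +/+ arrays below it, at 40.6 and 3.6. It was at least 1.87-fold higher in PTIP -/-, and it was not tested. Muscle markers, of another mesenchymal fate, summed to 336.5 and 9030.2 in PTIP -/- and 328.7 and 1958.6 in PTIP +/+. Most of the number 2 signal came from Acta1, which alone read 8870.4 in PTIP -/- and 1850.3 in PTIP +/+ there. Des did not follow the number, at 84.7 and 85.8 in PTIP -/- against 70.2 and 72.9 in PTIP +/+. Its other probe set read 219.5 and 108.2 in PTIP -/- and lay below the readable level in PTIP +/+. Myod1 and Myog did not pass the level filter. For Thy1, a fibroblast surface marker, the PTIP -/- arrays gave 14822.9 and 1500.7 and the PTIP +/+ arrays 16080.1 and 239.2, far lower in number 2 of both genotypes, where Cebpb and the brighter Cebpd probe set were higher. These genes were chosen after their values were seen.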
